A study of Rattus norvegicus with 12 samples.

Results

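The genes described here encode proteins that hold epithelial cells to each other and to the layer beneath them. They are Mpzl2, Pmp22, Itga6, Itgb4, Cdh1, Cldn3, Cldn7, Tjp1, Ocln and F11r. Every probe set whose 1 platform gene symbol was one of these 10 names was taken, which gave 17 probe sets, 13 of 15866 on the Affymetrix rat array 230A and 4 of 15276 on 230B. A probe set is a group of short probes read as 1 signal for 1 transcript. The members were chosen with the difference between the iron groups already known for some of them. Mpzl2 and Pmp22 were known to lie higher in low Fe. They were thus partly chosen by their low Fe and high Fe signals, the values given below, and differences of members are descriptions, with no test.

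The samples were mucosal scrapings of rat jejunum, the stretch of small intestine between duodenum and ileum, from a high Fe and a low Fe group of 3 samples each, all labelled with week 12 and numbered 1 to 3 in their titles (called replicates here). Each sample was run on both array types, for 12 arrays in all. The labels name iron deficiency and anemia as keywords for the 230A samples and give no strain, age, sex, iron dose or agent, and they do not say whether a sample was 1 animal or a pool. With no statement that animals were separate, the p-values below cover the spread between the samples at hand, and that spread may be technical.

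Epithelial cells of the gut are sealed near their apex by tight junctions. In these, claudins and occludin span the membranes and the scaffold Tjp1 (ZO-1) ties them to actin. Below lies the adherens junction, where E-cadherin, the product of Cdh1, binds its like on the next cell. At the base, the integrin made of the Itga6 and Itgb4 chains grips laminin of the basement membrane. Pmp22 has the same fold of 4 membrane-spanning helices as claudins, and Mpzl2 and F11r (JAM-A) are adhesion proteins with immunoglobulin domains.

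The promoters of Pmp22, Cldn3 and Cldn7 are shown because these related proteins gave differences of unlike size between the iron groups. They come from RefSeq (build GRCr8) and run from 250 bases before to 50 bases after the gene's start. Pmp22 lies at chr10:48294682-48294981 (+ strand), Cldn3 at chr12:27346498-27346797 (- strand) and Cldn7 at chr10:55188420-55188719 (+ strand). Capitals mark matches, on either strand, to 4 motifs: the GC box GGGCGG, the E2 box CACCTG, the core ACGTG of hypoxia response elements and the TATA box TATAAA. No matches overlapped in these windows.
Pmp22: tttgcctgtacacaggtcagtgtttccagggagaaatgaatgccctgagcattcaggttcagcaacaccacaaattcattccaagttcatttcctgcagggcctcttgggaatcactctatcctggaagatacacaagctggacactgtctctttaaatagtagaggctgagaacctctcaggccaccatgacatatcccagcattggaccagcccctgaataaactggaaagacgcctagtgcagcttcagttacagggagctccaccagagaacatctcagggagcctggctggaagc
Cldn3: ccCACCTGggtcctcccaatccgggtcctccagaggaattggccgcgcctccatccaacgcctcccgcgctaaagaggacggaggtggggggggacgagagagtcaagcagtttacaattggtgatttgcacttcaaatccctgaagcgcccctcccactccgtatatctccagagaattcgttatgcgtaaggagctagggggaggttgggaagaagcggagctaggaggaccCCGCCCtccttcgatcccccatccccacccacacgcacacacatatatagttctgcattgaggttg
Cldn7: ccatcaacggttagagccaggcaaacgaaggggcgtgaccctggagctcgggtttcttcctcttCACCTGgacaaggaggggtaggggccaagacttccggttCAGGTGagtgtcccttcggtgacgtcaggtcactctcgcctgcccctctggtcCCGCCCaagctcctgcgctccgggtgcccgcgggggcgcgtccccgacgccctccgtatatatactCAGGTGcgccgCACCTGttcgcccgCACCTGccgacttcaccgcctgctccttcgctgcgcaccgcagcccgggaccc

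Cldn7 held 5 matches to the E2 box and 1 to the GC box, Cldn3 held 1 of each, and Pmp22 held none of the 4 motifs. Of 33469 promoters of the same length, 33.1% held the GC box, 18.8% the E2 box, 19.3% ACGTG and 14.2% TATAAA. The table had promoters for 6 of the 10 genes. Of these, 4 held the E2 box (Cldn3, Cldn7, F11r and Ocln), 3 the GC box (Cldn3, Cldn7 and F11r), and none held ACGTG or TATAAA. The window of Tjp1, without any of the 4 motifs, is chr1:128325311-128325610 (- strand). It lies far inside the span of that gene, 128260330 to 128505018, and not at its outer start. The GC content was 49.7% for Pmp22, 58.0% for Cldn3 and 67.0% for Cldn7. A match is a description of these letters, and a missing match says only that the letters are not in this window.

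The signals were deposited on a linear scale, scaled so that the arrays of a type have the same trimmed mean, and can be compared within a type only, and for 1 probe set at a time, since probes differ in how well they bind. Tissue identity was checked against marker genes. Epithelial markers were bright, with a summed signal of 9 genes between 62443 and 90892 in high Fe and between 71387 and 77742 in low Fe on 230A. None of the 5 endothelial markers on 230A reached the level needed for testing, and their summed signal stayed between 263.4 and 368. On 230B the 2 tested, Kdr and Tek, had sums of 617 to 786 in high Fe and 500 to 678 in low Fe, and Tek was lower in low Fe without overlap, at -0.40 ± 0.23 (limma adjusted p = 0.555). In tissue scrapings, fewer cells of a type and less RNA per cell cannot be told apart. The summed signal of 8 smooth muscle markers was 3505 to 4211 in high Fe and 4523 to 5928 in low Fe. Most of it came from Mylk, at 2436 to 2926 and 3391 to 4013. All 5 tested lay above 0, although 0 of the 5 passed the test. The high Fe means of Smtn, 79.4, and Des, 96.6, lay under the level needed for testing, 106 on 230A. Smtn and Des were thus tested only through their low Fe signals, and their sign is no support for a rise. Mylk, Des, Smtn and the dim Tagln were higher in low Fe without overlap, and Acta2, Myh11, Cnn1 and Actg2 overlapped. On 230B the sum of 4 smooth muscle markers overlapped, at 919 to 1346 and 882 to 1444. The part of smooth muscle in any difference below was not tested. Log2 differences are low Fe minus high Fe of log2(signal + 16), a scale on which the change of a dim gene looks smaller than it is. They are given with the SE of the limma fit.

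Of the 10 genes, Mpzl2, Pmp22 and Itga6 had a bright probe set whose 3 low Fe arrays lay well above the 3 high Fe arrays. Cldn3 and Cdh1 had small differences without overlap. The remaining genes overlapped between the groups. By the limma fit over all probe sets of a type, 0 of the 13 tested member probe sets on 230A passed an adjusted p of 0.05, where 0.0945% of all 9519 tested did, and 3 of the 13 had an unadjusted p under 0.05, where 6.68% of all did. On 230B 0 of the 2 tested passed, and 0% of all 9165 did, although 932 of these had an unadjusted p under 0.05, as did 1 of the 2 members. The groups did not overlap for 4 of the 13 on 230A and 1 of the 2 on 230B, each higher in low Fe, where 5.61% and 7.11% of all tested probe sets stood apart in that direction. Since the members were chosen with this contrast known, nothing is read from these counts.

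**Figure D1:**
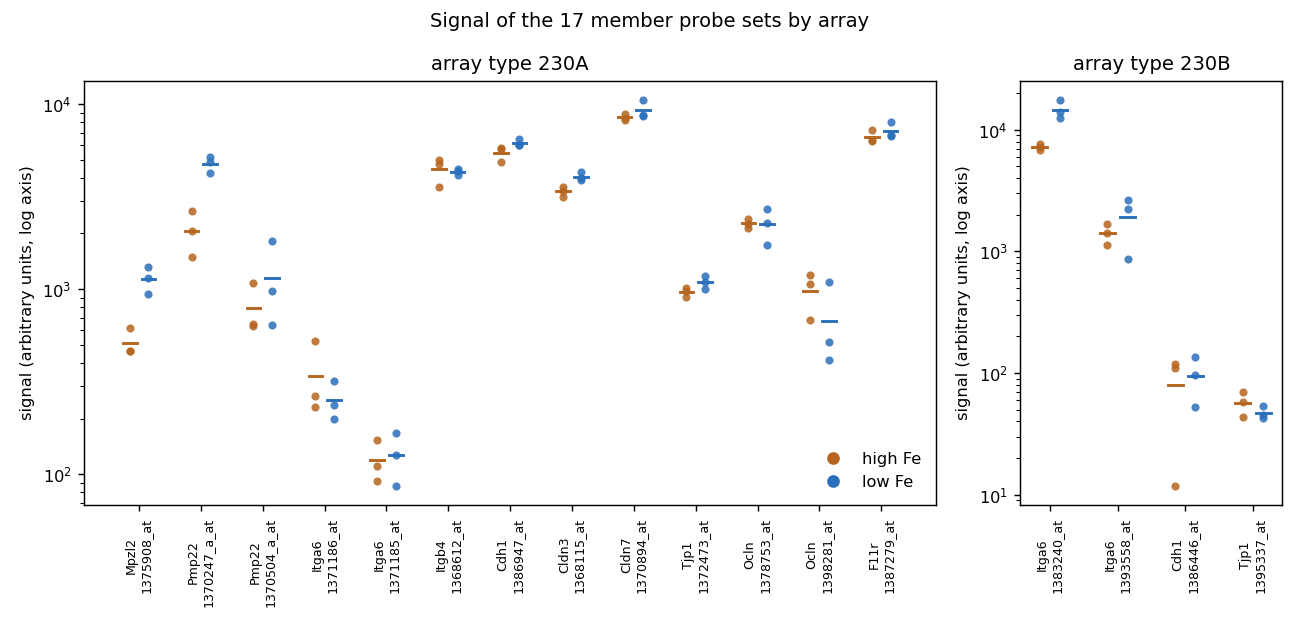
Signal of each member probe set (arbitrary units, log axis) on the 3 high Fe and 3 low Fe arrays, with 230A on the left and 230B on the right. Each point is 1 array and each short line the group mean. The low Fe points stand clear of the high Fe points for Mpzl2, the brighter Pmp22 probe set and the Itga6 probe set 1383240_at, and the groups overlap for Itgb4, Cldn7, F11r, Tjp1 and Ocln.

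Mpzl2, an adhesion protein with an immunoglobulin domain, has 1 probe set (1375908_at, 230A). Its signals were 614, 461 and 464 in high Fe replicates 1 to 3 and 938, 1146 and 1315 in low Fe replicates 1 to 3. Every low Fe array was above every high Fe array, and low Fe replicate 3 was highest. The means were 513 ± 87.5 and 1133 ± 189 (SD, n = 3 each), a log2 difference of 1.12 ± 0.17, or 2.17-fold. The difference was between 1.01 and 1.25 with any 1 array left out.

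F11r, the junctional adhesion molecule JAM-A of tight junctions, is also an immunoglobulin-domain protein. Its 230A probe set (1387279_at) read 7259, 6367 and 6287 in high Fe and 8009, 6794 and 6724 in low Fe. The groups overlapped, because high Fe replicate 1 lay above 2 of the 3 low Fe arrays. The log2 difference was 0.11 ± 0.12, and 0.03 without low Fe replicate 1.

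Pmp22, a membrane protein of myelin and of epithelia, has 2 probe sets on 230A. The brighter (1370247_a_at) read 2643, 1487 and 2066 in high Fe and 5165, 4240 and 4886 in low Fe. The lowest low Fe array was above the highest high Fe array. The means were 2065 ± 578 and 4764 ± 475 (SD, n = 3 each), a log2 difference of 1.23 ± 0.20, or 2.35-fold. Without 1 array it ran from 1.02 (without high Fe replicate 2) to 1.43 (without high Fe replicate 1).

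The dimmer Pmp22 probe set (1370504_a_at) gave another picture. It read 650.3, 635 and 1078 in high Fe and 1813, 979.8 and 644 in low Fe. The groups overlapped, and low Fe replicate 3, among the brightest arrays by the other probe set, was here the second lowest. The log2 difference was 0.45 ± 0.35, which was 0.06 with low Fe replicate 1 left out and 0.79 with low Fe replicate 3 left out. Pmp22 is a main protein of myelin, so markers of Schwann cells and enteric glia were also read. Their summed signal over 5 genes on 230A was 507.8 to 700.3 in high Fe and 419.5 to 532 in low Fe, and 1 of the 3 tested lay above 0. S100b, 1 of the 3, had a low Fe mean of 99.4, under the level of 106 needed for testing. It was thus tested only through its high Fe signals. On 230B the 1 marker measured, Mbp, read 669 to 2367 over the 6 arrays and gave -0.43 ± 0.44.

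Cldn3 and Cldn7 are claudins, the strand-forming proteins of tight junctions. Cldn3 (1368115_at, 230A) read 3407, 3139 and 3568 in high Fe and 4274, 3995 and 3888 in low Fe. The groups did not overlap, with means of 3371 ± 217 and 4053 ± 199 (SD, n = 3 each), but the gap was small: a log2 difference of 0.27 ± 0.11, or 1.20-fold. Cldn7 (1370894_at, 230A) read 8224, 8379 and 8796 in high Fe and 10482, 8697 and 8592 in low Fe. Only low Fe replicate 1 stood above all high Fe arrays. The log2 difference of 0.12 ± 0.12 was 0.03 without that array.

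Ocln encodes occludin, a tight junction protein of another membrane family. Its brighter probe set on 230A (1378753_at) read 2404, 2261 and 2149 in high Fe and 2704, 2283 and 1733 in low Fe. Low Fe held both the highest and the lowest array, and the log2 difference was -0.04 ± 0.17. That difference was 0.13 when low Fe replicate 3 was dropped, -0.19 when low Fe replicate 1 was dropped, and 0.33 after scaling to the hybridization controls, where the median of all tested probe sets was 0.34. The dimmer probe set (1398281_at) read 678, 1066 and 1199 in high Fe and 1099, 519.9 and 412 in low Fe. Its groups overlapped too, with a log2 difference of -0.61 ± 0.35, which ran from -1.02 when low Fe replicate 1 was dropped to -0.33 when low Fe replicate 3 was.

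Tjp1, the scaffold that links claudins and occludin to actin, read 906, 981 and 1013 in high Fe and 1179, 999 and 1088 in low Fe on 230A (1372473_at). Low Fe replicate 2 fell within the high Fe range. The log2 difference was 0.17 ± 0.13. A second Tjp1 probe set, on 230B (1395337_at), lay at signals of 42.4 to 70.0, under the filter boundary of 182.9 for that type, and was not tested.

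Cdh1, E-cadherin, is the adhesion receptor of the adherens junction. Its 230A probe set (1386947_at) read 5735, 4885 and 5777 in high Fe and 5984, 6472 and 6042 in low Fe. The groups did not overlap, yet high Fe replicates 1 and 3 lay just under the lowest low Fe array. The means were 5466 ± 503 and 6166 ± 266 (SD, n = 3 each), a log2 difference of 0.18 ± 0.12, or 1.13-fold, and 0.10 without high Fe replicate 2. The 230B probe set of Cdh1 (1386446_at) was dim, from 11.9 to 135 over the 6 arrays, and was not tested.

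Itga6 and Itgb4 encode the chains of the integrin of hemidesmosomes. Itgb4 (1368612_at, 230A) read 5006, 3572 and 4740 in high Fe and 4328, 4464 and 4145 in low Fe. The 3 low Fe arrays lay inside the high Fe range, and the log2 difference was -0.03 ± 0.14. Its sign was not stable: it was -0.18 without high Fe replicate 2, 0.07 without high Fe replicate 1, and 0.35 after scaling to the hybridization controls, where the median of all tested probe sets was 0.34.

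Itga6 had 4 probe sets, more than any other member, and they did not give 1 answer. On 230B the brightest (1383240_at) read 7636, 6879 and 7187 in high Fe and 12458, 14091 and 17487 in low Fe. All low Fe arrays stood far above all high Fe arrays, and the high Fe arrays were close together. The means were 7234 ± 381 and 14678 ± 2566 (SD, n = 3 each), a log2 difference of 1.01 ± 0.16, or 2.01-fold. Without 1 array it ran from 0.87 to 1.12.

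The other 230B probe set of Itga6 (1393558_at) read 1124, 1694 and 1412 in high Fe and 2641, 2237 and 862 in low Fe. The first 2 low Fe replicates lay above all high Fe arrays and low Fe replicate 3 below all of them. Its log2 difference of 0.31 ± 0.39 was 0.80 with low Fe replicate 3 left out and -0.0004 with low Fe replicate 1 left out. On 230A, 1371186_at read 231, 264 and 522 in high Fe and 320.4, 237 and 200.1 in low Fe. That gave a log2 difference of -0.34 ± 0.30, which was 0.01 without high Fe replicate 3 and also 0.01 after scaling to the hybridization controls, where the median of all tested probe sets was 0.34. The remaining probe set (1371185_at) was dim, at 87.0 to 166 against a filter boundary of 106 on 230A, with a log2 difference of 0.07 ± 0.26 that was -0.12 without low Fe replicate 1.

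**Figure D2:**
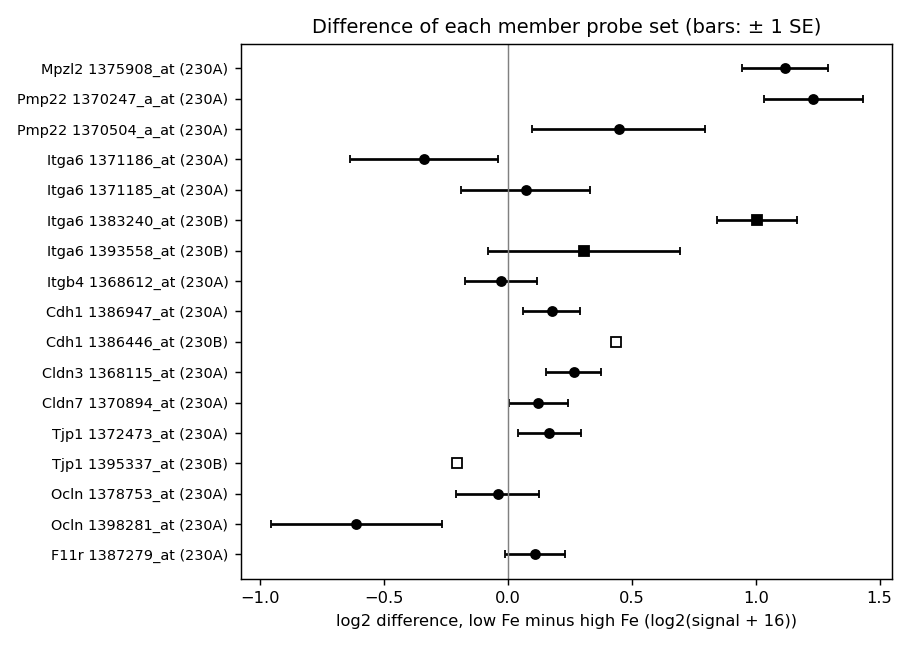
Log2 difference, low Fe minus high Fe, of each member probe set on the log2(signal + 16) scale, with bars of ± 1 SE of the fit; circles are 230A and squares 230B. Open squares are the 2 probe sets too dim to be tested. Mpzl2 at 1.12, the brighter Pmp22 probe set at 1.23 and Itga6 1383240_at at 1.01 lie apart from the rest, which run from -0.61 to 0.45.

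Over the 15 tested member probe sets of both types, 11 log2 differences were above 0 and 4 below. On 230A 9 of the 13 lay above 0, where 46.9% of all tested probe sets did. The median of these 13 was 0.12, where that of all tested probe sets was -0.01. Members were partly chosen by this contrast, so nothing is read from these counts. Low Fe replicate 1 had the highest signal for 8 of the 13 members on 230A, while it was the highest array for 13.4% of all tested probe sets there. High Fe replicate 2 was lowest for 6 of the 13, and for 19.9% of all. Without low Fe replicate 1 the log2 differences of Cldn7 and F11r fell to 0.03, while that of Cdh1 was 0.20. Without high Fe replicate 2 that of Cdh1 fell to 0.10, while that of Cldn7 stayed at 0.12.

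The scaling of the arrays also bears on the small differences. Scaling to the hybridization controls moved the median of all tested probe sets to 0.34 on 230A and 0.14 on 230B. Taken relative to these medians, the log2 differences were 1.14 for Mpzl2, 1.26 for the brighter Pmp22 probe set, 1.05 for Itga6 1383240_at, 0.30 for Cldn3, 0.21 for Cdh1 and 0.0042 for Itgb4. Over the 16 alternative settings, 10 of the 15 tested member probe sets kept their sign, and 5 changed it under at least 1. The 5 were those of Itgb4, the brighter of Ocln, both of Itga6 on 230A and 1393558_at of Itga6 on 230B. Settings that changed only the filter, the variance trend or a block for replicate number left each difference as it was. They could not change a sign, so the count of kept signs is no measure of stability.

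Agreement between probe sets was then compared gene by gene. Of the 10 genes, 5 had 1 probe set and 5 had more, and 3 of these (Pmp22, Ocln and Itga6) had more than 1 tested. Among the 8 pairs of tested probe sets of the same gene, 5 gave log2 differences of the same sign and 3 of opposite sign. All 3 opposite pairs involved 1371186_at of Itga6. Even among pairs of the same sign the sizes were unlike: the brighter probe set exceeded the dimmer by 0.79 for Pmp22, 0.57 for Ocln and 0.70 for Itga6 on 230B.

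The ratio of a gene's dimmer to its brighter probe set, read on each array, did not follow the iron groups. For Pmp22 the log2 ratio was -2.00, -1.21 and -0.93 in high Fe replicates 1 to 3 and -1.50, -2.10 and -2.89 in low Fe replicates 1 to 3. For Ocln it was -1.80, -1.07 and -0.83 in high Fe and -1.29, -2.10 and -2.03 in low Fe. For Itga6 on 230B it was -2.75, -2.01 and -2.34 in high Fe and -2.23, -2.65 and -4.32 in low Fe. In these 3 genes the ratio was lowest in the same 3 samples: replicates 2 and 3 of low Fe and replicate 1 of high Fe.

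Those 3 samples were also alike in a sign of RNA quality. The 5'/3' ratio of the GAPDH control probe sets on 230A was 0.794 to 0.811 in them and 0.876 to 0.922 in the other 3, and on 230B 0.821 to 0.873 and 0.877 to 0.939. The same ratio of beta-actin was 0.0539 in low Fe replicate 3, 0.591 in low Fe replicate 2 and 0.62 in high Fe replicate 1, against 0.737 to 0.836 in the other 3. Of the 4 member pairs on 1 array type, 3 had a lower ratio without overlap in the samples with the low GAPDH ratio, the exception being Itga6 on 230A. Over all genes with more than 1 tested probe set, 30.1% of 1163 pairs on 230A and 17% of 1111 pairs on 230B did so. Where each probe set lies along its transcript was not analysed here, and the part of RNA quality in the disagreement was not tested.

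**Figure D3:**
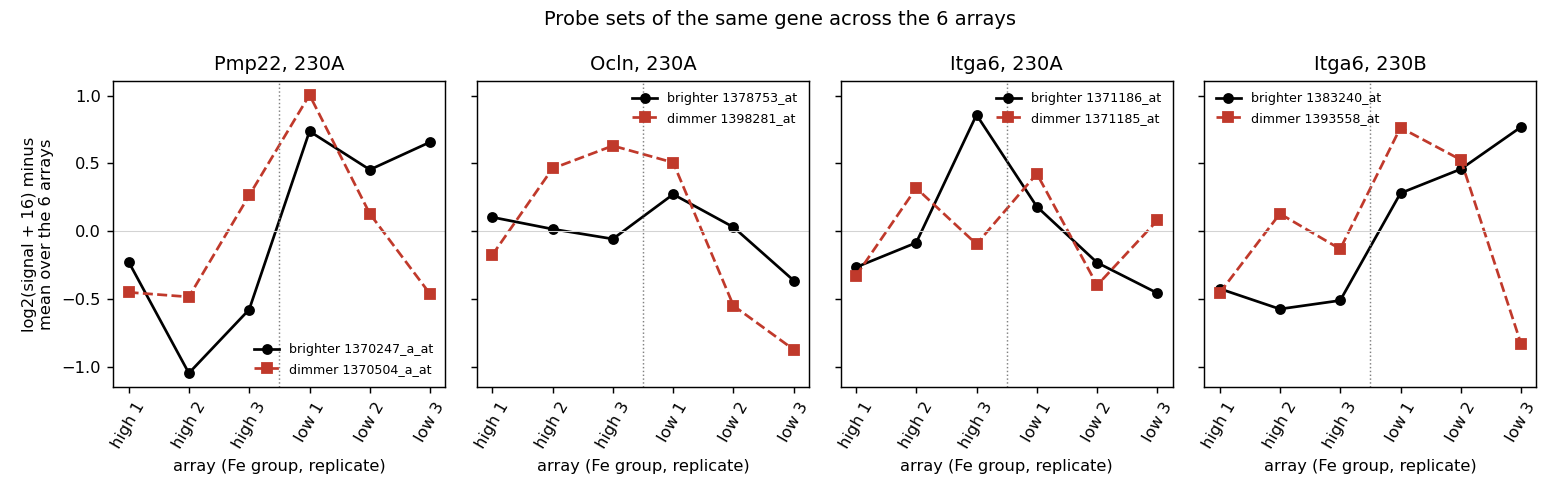
Log2(signal + 16) of the 2 probe sets of Pmp22, Ocln and Itga6 on 1 array type, each minus its mean over the 6 arrays; the x axis gives the iron group and replicate. For Pmp22, Ocln and Itga6 on 230B the dimmer probe set (red) falls away from the brighter (black) in low Fe replicate 3, where its log2 ratio to the brighter is -2.89, -2.03 and -4.32.

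The differences of the 3 bright probe sets were also read within each set of samples alike in the GAPDH ratio, where a set holds 1 or 2 arrays of a group and allows no test. In the lower set the log2 differences were 0.98 for Mpzl2, 0.78 for Pmp22 and 1.04 for Itga6 1383240_at. In the higher set they were 1.00, 1.55 and 0.82. Mpzl2 and Itga6 thus differed by about as much within each set as over all 6 arrays, and Pmp22 by less in the lower set. Cldn3 gave 0.21 and 0.35, Cdh1 0.12 and 0.17, and Tjp1 0.20 and 0.24. F11r gave -0.10 and 0.34, the brighter Ocln probe set -0.27 and 0.29, and Itgb4 -0.22 and 0.07, so their direction was not the same in both sets. The higher set has 1 low Fe array, replicate 1, and the lower set 1 high Fe array, replicate 1.

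Genes whose profile over the 6 arrays lay nearest to that of a member were found by the root mean square distance between log2 values, each centred on its own mean. For Mpzl2 they were Hmox1, the heme oxygenase (0.17), P4ha1, a collagen prolyl hydroxylase (0.18), and Egln3, a prolyl hydroxylase that acts on hypoxia-inducible factors (0.19). For the brighter Pmp22 probe set they were Hmox1 (0.12), Gprc5a, a membrane receptor (0.18), and Egln3 (0.18). For Cdh1 they were Naa12 (0.03), C10h5orf15 (0.03) and Ints5 (0.04). For Itga6 1383240_at on 230B, added after its values were seen, they were Noct, nocturnin (0.09), Zfp503 (0.10) and Pspc1 (0.12). The first 2 members share Hmox1 and Egln3 among their nearest genes, while Cdh1, whose range over the arrays is small, lies near other genes of small range. Mpzl2 and Pmp22 were chosen with their rise in low Fe known, so genes with a like step between the groups had to lie nearest. The log2 differences of Hmox1, P4ha1, Gprc5a and Egln3 were 1.31, 1.19, 1.06 and 0.99. Nothing is read from the shared names.

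The other genes of the junctions were taken from a list of 103 genes in 8 groups drawn up by function. Of these, 89 had a probe set and 73 were tested, by 107 probe sets over both array types. By the limma fit, 0 of the 58 on 230A and 0 of the 49 on 230B passed an adjusted p of 0.05 over all probe sets, against 0.0945% and 0% of all tested. At an unadjusted p under 0.05 there were 5 of 58 (4 higher and 1 lower in low Fe) and 6 of 49 (3 and 3), where all tested probe sets gave 6.68% and 10.2%. The median log2 difference was -0.11 on 230A and 0.04 on 230B, against -0.01 and -0.04 over all tested probe sets. Higher in low Fe without overlap were 5 of 58 on 230A and 5 of 49 on 230B, against 5.61% and 7.11% of all tested. Lower without overlap were 3 on 230A and 8 on 230B, for which the share over all probe sets was not counted. No adjusted p below, from limma with Benjamini-Hochberg adjustment, passed the threshold.

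**Figure D4:**
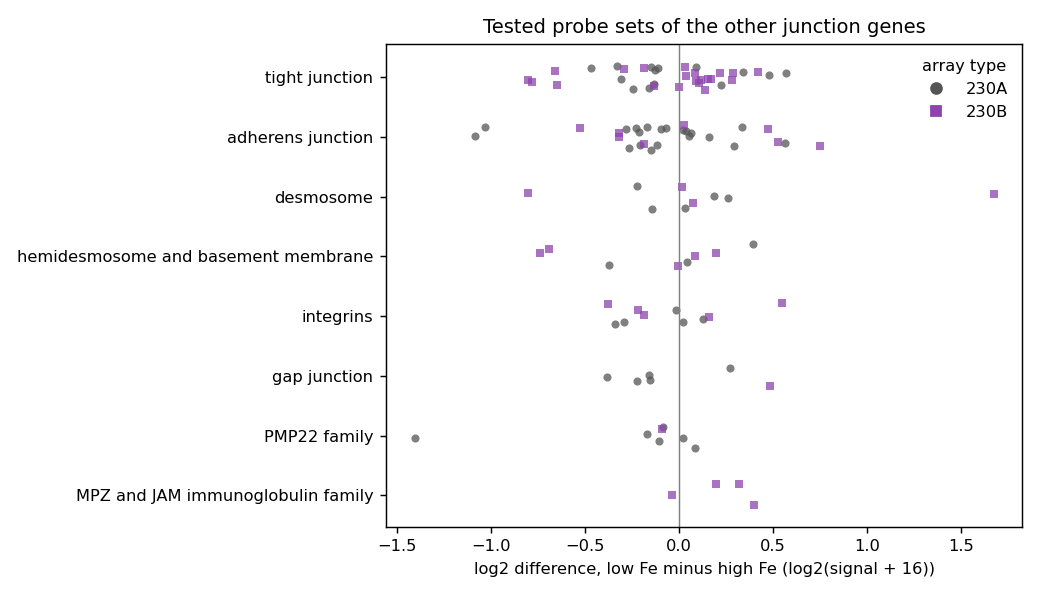
Log2 difference, low Fe minus high Fe, of each tested probe set of the other junction genes, by group; circles are 230A and squares 230B, and the vertical spread within a group has no meaning. The 107 points lie on both sides of 0, from -1.40 for a probe set of Emp1 to 1.67 for Pkp1, and none passed the threshold.

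Tight junction genes (35 tested probe sets, 18 above 0, median 0.03) held the pore-forming claudin Cldn2, with a log2 difference of 0.57 ± 0.24 (adjusted p = 0.735), and the transcription factor Ybx3, which binds Tjp1, with 0.48 ± 0.19 (adjusted p = 0.720). The polarity kinase gene Prkcz gave -0.31 ± 0.13 (adjusted p = 0.730). On 230B the claudins Cldn18 and Cldn14 and paracingulin, Cgnl1, lay lower in low Fe without overlap, at -0.65 ± 0.21, -0.66 ± 0.21 and -0.80 ± 0.30 (adjusted p = 0.456 for each). The low Fe mean of Cgnl1, 175, lay under the filter boundary of 182.9, so it was tested only through its high Fe signals. A dimmer probe set of Cldn18 gave 0.04 ± 0.27. Cldn15, a cation-pore claudin of the small intestine, was bright on 230B and gave 0.17 ± 0.15 and 0.22 ± 0.14 by its 2 probe sets.

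Adherens junction genes (28 probe sets, 12 above 0, median -0.11) included genes whose probe sets disagreed. Nectin3, an immunoglobulin adhesion protein, had 4 tested probe sets on 230B. The brighter 2 gave 0.75 ± 0.18 (adjusted p = 0.400) and 0.53 ± 0.15, and the dimmer 2 gave -0.53 ± 0.24 and -0.32 ± 0.19, each without overlap between the groups. Actn1, an actin cross-linker also made by smooth muscle, gave 0.56 ± 0.20 (adjusted p = 0.681) and 0.04 ± 0.21 for a dimmer probe set. Jup, plakoglobin, gave 0.33 ± 0.17. Lima1, an actin-binding protein, gave -0.27 ± 0.13 on 230A and 0.48 ± 0.28 on 230B, the latter without overlap. Vcl, vinculin, which links junctions to actin, gave 0.29 ± 0.16 and -0.12 ± 0.22 on 230A and -0.32 ± 0.25 on 230B. Ctnnb1, beta-catenin, which binds the tail of E-cadherin, gave -0.21 ± 0.19 by its brightest probe set, and -0.21 ± 0.43 and -1.08 ± 0.83 by dimmer ones. In the last of these low Fe replicate 3 read 129 and the other arrays 984 to 2374.

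Of the desmosome genes (9 probe sets, 6 above 0, median 0.03), Pkp1, a plakophilin, read 215, 46.7 and 230.1 in high Fe and 398.5, 520.4 and 502 in low Fe. That log2 difference of 1.67 ± 0.50 (adjusted p = 0.456) was measured on 230B. The high Fe mean of Pkp1, 164, lay under the filter boundary of 182.9, so it was tested only through its low Fe signals. Pkp2 gave 0.26 ± 0.14 and Dsp, desmoplakin, 0.19 ± 0.10, both higher in low Fe without overlap. Pkp4 gave -0.23 ± 0.13 on 230A, lower in low Fe without overlap, and -0.81 ± 0.62 on 230B, where the groups overlapped. Ppl, periplakin, gave 0.08 ± 0.16 on 230B.

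Genes of the hemidesmosome and basement membrane (8 probe sets, 4 above 0, median 0.02) are the partners of the Itga6 and Itgb4 integrin. Plec, plectin, which ties Itgb4 to keratin, gave 0.39 ± 0.16 (adjusted p = 0.730), without overlap. The laminin chain Lama3 gave -0.37 ± 0.24, and Lama5 on 230B gave -0.69 ± 0.32 (adjusted p = 0.504), lower in low Fe without overlap. The low Fe mean of Lama5, 163, lay under the filter boundary of 182.9, so it was tested only through its high Fe signals. Cd151, a tetraspanin that binds this integrin, gave 0.04 ± 0.11 and Col17a1 0.09 ± 0.25. Dst, which holds the hemidesmosome linker dystonin, gave 0.20 ± 0.15 by its brighter and -0.74 ± 0.45 by its dimmer probe set on 230B.

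Of the other integrin genes (10 probe sets, 4 above 0, median -0.10), Itgb1, the other known partner chain of Itga6, gave 0.13 ± 0.13 and 0.02 ± 0.14 by its 2 probe sets on 230A. On 230B Itgav gave 0.55 ± 0.24 by its dimmer and -0.22 ± 0.24 by its brighter probe set, and Itga5 gave -0.38 ± 0.18. Itga3 gave -0.02 ± 0.13. Itgb5 gave -0.29 ± 0.23 and -0.34 ± 0.22 on 230A and -0.19 ± 0.31 on 230B. The Itga6 probe set 1383240_at, at 1.01, lay above the highest of these 10. It is the Itga6 probe set with the widest difference. The others, at -0.34, 0.07 and 0.31, lay within the range of the 10, which was -0.38 to 0.55.

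Gap junction genes (6 probe sets, 2 above 0, median -0.16) held the connexins Gjb1, at -0.38 ± 0.23, and Gjb2, at -0.22 ± 0.18. The connexins Gjc1, at 0.48 ± 0.28 on 230B, and Gja1, at 0.27 ± 0.26, lay above 0. Of the relatives of Pmp22 (7 probe sets, 2 above 0, median -0.09), only the 2 probe sets of Perp lay above 0, at 0.08 ± 0.15 and 0.02 ± 0.13 on 230A. Emp1 gave -0.08 ± 0.13 by its brighter and -1.40 ± 0.81 by its dimmer probe set, Emp2 -0.17 ± 0.17 on 230A and -0.09 ± 0.37 on 230B, and Emp3 -0.10 ± 0.19 on 230A. In the dimmer Emp1 probe set low Fe replicate 3 read 116.5 and the other arrays 575 to 2022. Of the immunoglobulin family of Mpzl2 and F11r (4 tested probe sets, all on 230B, 3 above 0, median 0.26), Igsf5, a junctional adhesion molecule, gave 0.32 ± 0.18 and Cxadr, the coxsackievirus and adenovirus receptor, 0.40 ± 0.33. Jam2 gave 0.20 ± 0.30 by its dimmer probe set and -0.04 ± 0.15 by its brighter one, which lay lower in low Fe without overlap. Mpzl1, a close relative of Mpzl2, was too dim to be tested on 230A: it read 15.4, 20.6 and 21.2 in high Fe and 44.5, 86.4 and 58.1 in low Fe.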

How the data were processed

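The authors deposited linear intensity values, 1 for each probe set on each array and none below 0. The sources used here do not give the software. The arrays of each type share 1 mean once the extremes are left out, so they had been scaled, and this scaling hides any change common to most genes. Members, lists and settings were chosen with earlier results of these data known. After controls were removed, probe sets in the lowest 40% by mean log2(signal + 16) over the 6 arrays of a type were not tested. The iron groups were compared with limma 3.58.1 (R 4.3.3; lmFit, eBayes with a mean-variance trend), each type separately, with Benjamini-Hochberg adjustment and a threshold of adjusted p 0.05. The 4 residual degrees of freedom limit precision. The steps were checked on simulated data.

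Names are platform symbols, updated through Entrez identifiers with the RefSeq gene table (12748 of 12783 1-symbol probe sets matched on 230A, 7524 of 7564 on 230B). The genes named from each of the 8 groups of other junction genes were those with the smallest unadjusted p, up to 3 per array type. Their other tested probe sets, and Cldn15, Ctnnb1, Perp and Mpzl1, were added after their values were seen. Marker lists not described in the report gave, on 230A, 4 of 5 tested fibroblast genes above 0 (summed signal 1026 to 1345 in high Fe and 1241 to 1436 in low Fe) and 2 of 4 leukocyte genes (6760 to 7585 and 6699.9 to 8185).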

Additional observations from a re-analysis of the deposited data

How the results depend on the processing

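The count of 230A probe sets past adjusted p 0.05 was 9 (8 higher and 1 lower in low Fe). Scaling to the hybridization controls gave 33 (25 higher, 8 lower), a block for the GAPDH ratio sets gave 14, a threshold of 0.1 gave 15, and leaving out 1 array gave 5 (without low Fe replicate 2) to 21 (without low Fe replicate 1). On 230B the count was 0, and 4 after scaling to the hybridization controls. With the replicate number as a block it was 4 on 230A and 0 on 230B. Deviations of arrays with the same number correlated between -0.36 and -0.10. The high Fe and low Fe arrays of each number fell in opposite GAPDH ratio sets, so these values cannot tell paired from unpaired samples. No other junction probe set passed under any setting run. The bright probe sets of Mpzl2, Pmp22 and Itga6 kept their direction in all 16 settings. Most of these settings could not have changed it. Those of the filter, the variance trend and the replicate block leave the difference as it was. Leaving out 1 array or changing the added constant cannot reverse groups that do not overlap. In the main fit Mpzl2, Pmp22 and Itga6 did not pass the threshold. Mpzl2 crossed it in 2 of the 16 settings, with the GAPDH block and without low Fe replicate 1. Pmp22 crossed it in 2, after scaling to the hybridization controls and without high Fe replicate 1, and Itga6 in none. That scaling moved the median of all tested probe sets on 230A to 0.34. Mpzl2 and Pmp22 were chosen with their rise in low Fe known, so nothing is read from these crossings. A common median moved the median of all tested probe sets on 230B from -0.04 to 0.09. The cause of these changes was not tested.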
